A study of Homo sapiens with 36 samples.

Results

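IL6, LIF, IL11, CLCF1, IL1A, IL1B, IL1RN, IL33, IL36G and IL24 are 10 of the 60725 Ensembl genes counted in 36 RNA-seq libraries of human breast cell lines, and were taken by name: 4 cytokines of the IL-6 family, 5 of the IL-1 family, and IL24. In MCF-10A cells that carry ER-Src, addition of TAM was followed by much higher IL24 transcript and by the appearance of IL33, and IL1B rose 2.52-fold. Knockdown of STAT3 or JUNB lowered IL24 and IL33 in TAM, and knockdown of JUNB lowered IL1B and raised IL6. Knockdown of YAP also lowered IL33 in TAM and, by less, IL24, and it raised IL1RN and IL1A. Not all of these changes passed in other fits. The libraries of the STAT3 and JUNB knockdowns also differed from the controls in a length measure given below. MDA-MB-231 cells had IL6, IL11, LIF and IL24 in every library and almost no IL33 or IL1RN.

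The IL-6 family cytokines (IL6, LIF, IL11 and CLCF1 here) bind receptor complexes that share the signal-transducing chain gp130, encoded by IL6ST, and pass their signal through JAK kinases to STAT3. In the IL-1 family, IL1A and IL1B activate the receptor IL1R1 with its partner IL1RAP, IL1RN encodes the antagonist that occupies IL1R1 without signalling, IL33 is an alarmin held in the nucleus that acts through ST2 (IL1RL1), and IL36G is an agonist found in epithelia. IL24 belongs to the IL-10 family and lies in the IL10, IL19, IL20 and IL24 cluster. It shares STAT3 as its main signal with the IL-6 family, through receptors that pair IL20RB with IL20RA or IL22RA1.

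ER-Src cells are non-transformed MCF-10A mammary epithelial cells with a fusion of v-Src to the ligand-binding domain of the oestrogen receptor, which tamoxifen (TAM) switches on. Ethanol (ETH) was the vehicle, and all 10 ER-Src groups carry the fusion. Each treatment was combined with a pool of siRNAs without a target (Ctrli) or against YAP (YAPi), TAZ (TAZi), STAT3 (STAT3i) or JUNB (JUNBi). The MDA-MB-231 line, a triple-negative breast cancer line, was given siRNA in 2 sets: set 1 with Ctrli, YAPi, TAZi, both YAPi and TAZi (YAPi_TAZi) and TEADi, and set 2 with its own Ctrli, JUNBi and STAT3i, which makes 8 groups. Each of the 18 groups had 2 libraries. The labels do not say that these came from separate cultures, so that p-values measure only the spread between the libraries, and for ER-Src they do not say how long TAM was present. The study's methods list the Src inhibitor AZD0530 together with tamoxifen for ER-Src cells given siRNA, at 2 alternative times. They tie neither a time nor the inhibitor to single libraries, so that the part of the inhibitor in TAM effects cannot be told apart. MDA-MB-231 has no ETH or TAM arm.

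Libraries held 6416159 to 19153233 counts in ER-Src, 13456764 to 13534549 in the set 1 controls, 1411300 to 2784553 in the set 1 knockdowns and 7290495 to 18076140 in set 2. In set 1 the knockdowns differed from their controls in library type as well as in siRNA: 7 RNAs without a poly(A) tail took 8.71 to 11.8% of counts in the knockdowns and 0.0028 to 0.0041% in the controls, so that knockdown and library type cannot be told apart there. In ER-Src the gap between gene length and effective length, which follows read or fragment length, was 49.0 bases in STAT3i and JUNBi. It was 49.5 bases in Ctrli, YAPi and TAZi. In STAT3i or JUNBi against Ctrli, siRNA and this library difference cannot be told apart. In 18 of 18 pairs of target and comparison, both knockdown libraries had less of the targeted transcript than both controls on the TPM scale. TPM are transcripts scaled by length and by the library's total. JUNB in ETH missed the threshold (adjusted p = 0.064 by DESeq2), and STAT3 in set 2 had no adjusted p. In set 1 the median gene was also lower than in the controls on that scale, by a log2 ratio of -1.43 to -1.33. By normalized counts the set 1 targets had log2 fold changes from -0.82 (TEAD1) to -6.34 (TEAD4). All 8 basal epithelial markers had a median of at least 1 TPM in ER-Src, against 2 of 8 in MDA-MB-231. Of 7 mesenchymal markers chosen for MDA-MB-231, 6 reached that median in ER-Src and 5 in MDA-MB-231, so that this list did not separate the lines. Leukocytes are a usual source of these cytokines, and the leukocyte markers PTPRC, CD3E, LYZ and FCGR3A stayed at or below 0.1 TPM in all ER-Src libraries. CD14 (3.01 to 9.6 TPM) and CD68 (1.86 to 18.1 TPM) were present in all of them. Their part in the results was not tested. In bulk RNA, fewer cells that express a gene and less RNA per cell cannot be told apart.

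IL1A (chromosome 2, 112773925 to 112784493), IL1B (112829751 to 112836816), IL36G (112973203 to 112985658) and IL1RN (113099315 to 113134016) lie within 360 kb of each other in GRCh38. IL24 is on chromosome 1 (206897443 to 206904139), IL33 on chromosome 9 (6215786 to 6257983), IL6 on chromosome 7 (22725884 to 22732002), LIF on chromosome 22 (30240453 to 30246759), IL11 on chromosome 19 (55364382 to 55370463) and CLCF1 on chromosome 11 (67364168 to 67374177). The strand setting of the counting is not given in the sources used here, and without it reads of overlapping genes cannot be separated. IL24 shares 823 of its 1979 exonic bases (41.6%) with FCMR on the other strand, which had 0.24 to 2.59 TPM in ER-Src and 2.24 to 17.1 TPM in MDA-MB-231. IL6 shares 9.91% of its exonic bases and LIF 4.37% with genes of the other strand, and CLCF1 shares 3.32% with ENSG00000256514 on its own strand. ENSG00000256514 had up to 5.3 TPM in ER-Src and up to 107 TPM in MDA-MB-231.

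Because the siRNAs target STAT3, the AP-1 factor JUNB and the TEAD partners YAP and TAZ, the promoters of the members that moved in ER-Src are shown with the letters of these factors' motifs. RefSeq (GRCh38.p14) gave 12 promoter windows for 8 of the 10 members, each of 250 bases upstream and 50 bases after a start. LIF and CLCF1 had none. The 250 upstream bases of 1 window per gene are printed 5′ to 3′ on the strand of the gene, in capitals where a motif was found.
IL24, chr1:206897193-206897442, plus strand: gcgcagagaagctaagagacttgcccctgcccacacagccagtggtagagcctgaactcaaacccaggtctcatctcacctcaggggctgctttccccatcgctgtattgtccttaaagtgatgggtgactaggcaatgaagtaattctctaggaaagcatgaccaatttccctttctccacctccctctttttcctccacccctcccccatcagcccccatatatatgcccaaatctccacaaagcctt
IL33, chr9:6215557-6215806, plus strand: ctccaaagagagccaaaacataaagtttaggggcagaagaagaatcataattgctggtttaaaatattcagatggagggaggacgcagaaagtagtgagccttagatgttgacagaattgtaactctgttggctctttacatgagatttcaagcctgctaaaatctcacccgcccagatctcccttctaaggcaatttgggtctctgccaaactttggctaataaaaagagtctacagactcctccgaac
IL1B, chr2:112836780-112837029, minus strand: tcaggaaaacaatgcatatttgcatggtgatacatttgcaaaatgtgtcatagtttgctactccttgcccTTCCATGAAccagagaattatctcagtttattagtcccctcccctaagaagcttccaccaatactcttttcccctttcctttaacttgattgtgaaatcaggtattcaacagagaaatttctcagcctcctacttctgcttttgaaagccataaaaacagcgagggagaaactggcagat
IL1A, chr2:112784401-112784650, minus strand: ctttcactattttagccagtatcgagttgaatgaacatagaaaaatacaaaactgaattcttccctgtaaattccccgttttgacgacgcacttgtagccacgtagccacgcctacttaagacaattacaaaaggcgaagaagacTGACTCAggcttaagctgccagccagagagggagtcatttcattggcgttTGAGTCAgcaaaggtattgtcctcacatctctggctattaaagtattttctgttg
IL1RN, chr2:113117721-113117970, plus strand: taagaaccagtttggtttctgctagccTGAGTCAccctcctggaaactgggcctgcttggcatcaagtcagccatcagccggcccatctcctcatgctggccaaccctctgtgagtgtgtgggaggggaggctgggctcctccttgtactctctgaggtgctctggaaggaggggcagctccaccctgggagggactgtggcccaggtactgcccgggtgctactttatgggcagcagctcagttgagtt
IL6, chr7:22726950-22727199, plus strand: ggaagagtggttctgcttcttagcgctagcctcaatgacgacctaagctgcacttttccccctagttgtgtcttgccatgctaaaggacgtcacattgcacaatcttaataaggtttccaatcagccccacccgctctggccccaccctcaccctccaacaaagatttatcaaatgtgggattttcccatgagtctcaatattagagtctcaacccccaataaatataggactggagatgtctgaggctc
The letters searched on both strands were TGANTCA for AP-1, TTCNNNGAA for STAT and GGAATG for TEAD. The AP-1 letters stood in the window printed for IL1A, at positions -105 and -55 relative to the start, and in that of IL1RN at -223. They also stood in the window of IL11 at -96. The window of a second IL1A start overlaps the printed one, and its matches at -12 and 39 are the same letters of the genome. The STAT letters stood at -180 in the IL1B window and at 16 in the IL33 window, past its printed stretch. The windows of IL24, IL6 and IL36G held none of these motifs, and no member window held the TEAD letters. For IL1RN and IL33 the window printed is the one with a match, and the windows of their other starts held none of these motifs. Of all 35116 windows, 7.71% held the AP-1 letters, 7.66% the STAT letters and 14.0% the TEAD letters. A match describes letters, not a bound site, and the lack of one says only that these letters are not in this window.

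Among the ER-Src libraries, IL24, IL1B and IL1A were the abundant members. On the TPM scale, which corrects for transcript length, IL24 ranged from 0.16 to 325 with a median of 7.34, IL1B from 4.34 to 41.2 with a median of 20.7, and IL1A from 7.17 to 35.8 with a median of 12.4. IL1RN (0.12 to 8.88 TPM), LIF (0.81 to 3.78 TPM), CLCF1 (0.32 to 2.05 TPM), IL6 (up to 3.69 TPM) and IL33 (up to 3.38 TPM) were lower. IL11 never had more than 5 counts and IL36G never more than 9 in an ER-Src library, and no change is given for either there.

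**Figure D1:**
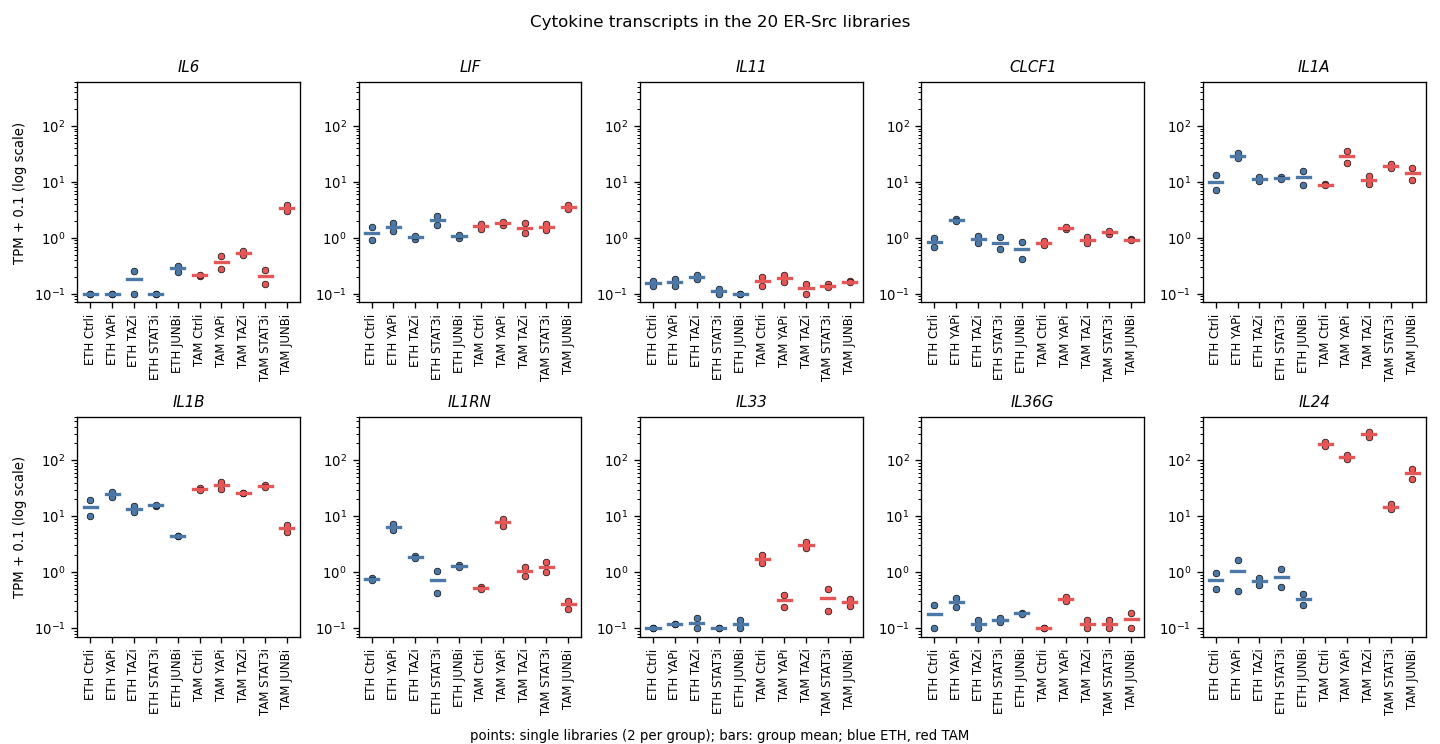
TPM of each member in the 20 ER-Src libraries, on a log axis after adding 0.1, with a point for each library (2 per group) and a bar for the group mean. IL24 lies at 0.16 to 1.56 TPM in the 10 ETH libraries and at 13.1 to 325 TPM in the 10 TAM libraries, and IL6 stands above 1 TPM in the TAM JUNBi libraries alone.

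The first comparison asked what TAM changed in cells with control siRNA. Of the 10 members, 3 rose (IL24, IL33 and IL1B) and none fell at an adjusted p under 0.01 by DESeq2, in a background of 6.21% of the 15724 genes tested. An adjusted p was given for 7 of the 10 members. Here and below, members without an adjusted p cannot be called, while backgrounds cover only genes that have one. IL24 had 0.85 and 0.40 TPM in the ETH libraries and 216 and 180 TPM in the TAM libraries. The groups were far apart, and IL24 was 500-fold higher by normalized counts (log2 fold change 8.97 ± 0.28 SE, adjusted p = 2.3e-223). Ordered by fold change, it ranked 6 among the 598 called genes that rose and averaged at least 100 normalized counts.

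IL33 had 0 counts in both ETH Ctrli libraries and 86 and 54 in the TAM libraries, which were 1.92 and 1.35 TPM. Against the floor of 3 counts over the ETH group it was at least 67.8-fold higher (adjusted p = 1.2e-07). IL1B, the secreted agonist, had 19.1 and 10.2 TPM in ETH and 31.6 and 28.8 TPM in TAM. Its rise was 2.52-fold (log2 1.33 ± 0.20, adjusted p = 3.7e-09), which ranked 222 among the same 598 genes. IL1A had 13.0 and 7.17 TPM in ETH and 9.07 and 8.56 TPM in TAM, so that the ETH libraries lay on both sides of the TAM libraries (log2 0.02, 95% interval -0.42 to 0.46). LIF, CLCF1 and IL1RN gave adjusted p of 0.83, 0.95 and 0.93, and IL6 had 2 and 1 counts in TAM and none in ETH.

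With TAM against ETH inside each knockdown, IL24 rose in all 4. The log2 fold change was 6.94 ± 0.88 for YAPi, 9.19 ± 0.29 for TAZi, 8.58 ± 0.51 for JUNBi and, the lowest of the 4, 4.36 ± 0.39 for STAT3i (adjusted p = 6.5e-26). Of the 10 members 2 were called for YAPi (background 4.50%), 3 for TAZi (7.13%), 2 for STAT3i (0.793%) and 3 for JUNBi (2.13%). The TAM libraries of STAT3i, with 16.2 and 13.1 TPM of IL24, were the lowest of the 10 TAM libraries and still above every ETH library. By edgeR the IL24 rise in STAT3i had an adjusted p of 0.031.

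IL1B also rose in YAPi (22.2 and 27.1 TPM in ETH, 30.8 and 41.2 in TAM; log2 0.74, adjusted p = 0.0078), TAZi (log2 1.23, adjusted p = 2.5e-11) and STAT3i (log2 1.24, adjusted p = 1.2e-06). In JUNBi it had 4.34 and 4.36 TPM in ETH and 6.97 and 5.13 TPM in TAM, the lowest levels of the gene in ER-Src, and its change of 0.57 ± 0.35 did not pass (adjusted p = 0.94). The YAPi rise lost its call by edgeR (adjusted p = 0.13), in 1 fit over all groups (0.017), with effective length offsets (0.015), with a mean count of at least 10 (0.011) and without ETH YAPi replicate 1 (log2 0.54, adjusted p = 1.0), ETH YAPi replicate 2 (0.96, 0.69) or TAM YAPi replicate 2 (0.39, 1.0). The STAT3i rise lost it by edgeR (adjusted p = 0.049) and without TAM STAT3i replicate 1 (1.14, 0.41) or replicate 2 (1.35, 0.015).

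IL33 was counted mainly in TAM. In TAZi it went from 0 and 2 counts in ETH to 198 and 203 in TAM, a ratio of 141 with an exact 95% counting interval of 38.8 to 1170 (adjusted p = 2.1e-09; 0.19 without TAM TAZi replicate 1 and 0.18 without replicate 2, at log2 6.85 and 7.31). In YAPi it had 2 and 1 counts in ETH and 18 and 15 in TAM, a ratio of 11.9 (3.73 to 60.7), short of the threshold (adjusted p = 0.10). In JUNBi it had 2 and 0 counts in ETH and 10 and 12 in TAM, a ratio of 10.1 (2.49 to 88.9; adjusted p = 0.78). In STAT3i it had none in ETH and 24 and 4 in TAM, at least 8.16-fold higher against the floor (unadjusted p = 0.0051, with no adjusted p by DESeq2 on these 4 libraries, and adjusted p = 0.0078 in 1 fit over all groups).

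IL-6 family members passed this contrast in JUNBi. IL6 went from 5 and 3 counts in ETH to 87 and 76 in TAM (log2 4.23 ± 0.80, adjusted p = 1.3e-05), and LIF, which keeps stem cells undifferentiated and signals through LIFR and gp130, went from 0.88 and 1.04 TPM to 3.78 and 3.13 TPM (log2 1.57 ± 0.37, adjusted p = 0.0012). In TAZi, IL6 went from 0 and 2 counts to 8 and 15, a ratio of 8.10 (2.00 to 70.9) with no adjusted p. Neither JUNBi call held by edgeR (adjusted p = 0.013 for IL6 and 0.063 for LIF). Without TAM JUNBi replicate 1 the adjusted p was 0.087 for IL6 (log2 4.15) and 0.35 for LIF (1.61), and without replicate 2 it was 0.037 (4.32) and 0.49 (1.54). IL1RN went the other way in JUNBi, from 1.26 and 1.14 TPM to 0.21 and 0.12 TPM, in groups that did not overlap, with a fold change that did not pass (log2 -2.46 ± 0.82, adjusted p = 0.077; 0.00013 in 1 fit over all 10 groups).

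Whether the TAM effect itself differed from that in Ctrli was tested with an interaction term. IL24 in STAT3i was the only member of 10 that passed in any of the 4 tests: its TAM effect was smaller than in Ctrli by a log2 difference of -4.57 ± 0.41 (adjusted p = 2.6e-25), and edgeR called it too. The backgrounds of all genes tested were 1.43% for STAT3i, 0.498% for YAPi, 1.60% for TAZi and 0.288% for JUNBi. In YAPi 0 members passed by DESeq2 and by edgeR, with 2 at an unadjusted p under 0.05 (IL33 and IL24), and IL24 passed without ETH YAPi replicate 1 (log2 -2.71, adjusted p = 7e-09). In TAZi 0 passed by either tool, with 0 at an unadjusted p under 0.05, but only 3 of the 10 members and 4424 genes had an adjusted p by DESeq2 there. In JUNBi 0 passed by either tool, with 3 at an unadjusted p under 0.05 (LIF, IL1B and IL33).

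The knockdowns were next compared with Ctrli in the same treatment, which asks which members differed with each siRNA. For STAT3i and JUNBi these comparisons also hold the difference in length gap. With TAM, 4 of 10 members were called for YAPi (background 10.7%), 1 for TAZi (3.42%), 3 for STAT3i (8.22%) and 5 for JUNBi (6.90%). With ETH, 4 were called for YAPi (11.6%), 0 for TAZi (5.24%), 0 for STAT3i (0.189%) and 1 for JUNBi (2.80%). In the 2 ETH comparisons with 0 calls by DESeq2, edgeR also gave 0, and 1 member (IL1RN) in TAZi and 0 in STAT3i had an unadjusted p under 0.05.

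STAT3i and JUNBi lowered IL24 in TAM. The 2 Ctrli libraries had 216 and 180 TPM, the STAT3i libraries 16.2 and 13.1 TPM and the JUNBi libraries 70.6 and 46.2 TPM. The 3 groups did not overlap. The decrease in STAT3i was 17.7-fold (log2 -4.14 ± 0.14, adjusted p = 9.2e-194) and ranked 13 among 598 genes that fell with a mean of at least 100 counts. In JUNBi it was 4.17-fold (log2 -2.06 ± 0.13, adjusted p = 6.7e-57), rank 32 of 479. In ETH, IL24 had 3 to 56 counts in a library and passed in no knockdown.

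The YAP and TAZ knockdowns had smaller differences in IL24, in opposite directions. YAPi had 106 and 124 TPM (log2 -0.74 ± 0.14, adjusted p = 4.4e-06) and TAZi 256 and 325 TPM (log2 0.43 ± 0.11, adjusted p = 0.0041), neither overlapping Ctrli. The YAPi call was lost by edgeR (adjusted p = 0.013), in 1 fit over all groups (0.37) and without TAM Ctrli replicate 1 (log2 -0.67, adjusted p = 0.020). The TAZi call was lost by edgeR (0.069), in 1 fit over all groups (0.78), without TAM Ctrli replicate 2 (0.37, 0.13) and without TAM TAZi replicate 2 (0.29, 0.93).

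IL33 in TAM was lower in 3 of 4 knockdowns. Ctrli had 86 and 54 counts, YAPi 18 and 15, STAT3i 24 and 4, and JUNBi 10 and 12. These groups lay below Ctrli without overlap, with log2 fold changes of -2.91 ± 0.52 (adjusted p = 1e-06), -3.28 ± 0.61 (2.9e-06) and -3.52 ± 0.56 (3.8e-08). TAZi, with 198 and 203 counts, lay above Ctrli, by a log2 fold change of 0.81 ± 0.33 that did not pass (adjusted p = 0.16). The call in YAPi was lost without TAM Ctrli replicate 1 (log2 -2.89, adjusted p = 0.025), TAM Ctrli replicate 2 (-2.86, 0.014) or TAM YAPi replicate 2 (-2.52, 0.021), and that in STAT3i without TAM Ctrli replicate 1 (-3.29, 0.020) or replicate 2 (-3.25, 0.013).

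JUNBi lowered IL1B in both treatments. In TAM it had 6.97 and 5.13 TPM against 31.6 and 28.8 TPM in Ctrli, a 5.65-fold decrease (log2 -2.50 ± 0.18, adjusted p = 5e-41), rank 12 of 479. In ETH it had 4.34 and 4.36 TPM against 19.1 and 10.2 TPM, a 3.41-fold decrease (log2 -1.77 ± 0.33, adjusted p = 1.5e-05). All 4 JUNBi libraries lay below all other ER-Src libraries for this gene. The ETH call was lost by edgeR (adjusted p = 0.057) and without ETH Ctrli replicate 1 (log2 -1.42, adjusted p = 0.57) or replicate 2 (-2.06, 0.012). In TAM, IL1B missed the threshold in the other knockdowns (adjusted p = 0.12 with YAPi, 0.38 with TAZi, and 0.87 with STAT3i), and without TAM YAPi replicate 1 it passed in YAPi (log2 0.74, adjusted p = 0.0038).

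YAPi raised the receptor antagonist IL1RN in both treatments. In TAM it had 6.53 and 8.88 TPM against 0.45 and 0.40 TPM in Ctrli, a 26.5-fold rise (log2 4.73 ± 0.44, adjusted p = 8.9e-24), rank 10 among 655 genes. In ETH it had 5.62 and 7.28 TPM against 0.68 and 0.61 TPM, a 13.1-fold rise (log2 3.71 ± 0.37, adjusted p = 2.5e-21), rank 14 of 639. The 4 YAPi libraries were the 4 highest of the 20 for IL1RN, and the next group, ETH TAZi, had 1.81 and 1.70 TPM. TAZi lay above Ctrli without overlap in TAM (log2 1.57, adjusted p = 0.23) and in ETH (log2 1.48, adjusted p = 0.088), and neither passed.

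The agonist IL1A rose in YAPi as well. It had 22.1 and 35.8 TPM in TAM against 9.07 and 8.56 TPM in Ctrli (log2 1.72 ± 0.23, adjusted p = 1.2e-11), and 26.5 and 32.4 TPM in ETH against 13.0 and 7.17 TPM (log2 1.56 ± 0.39, adjusted p = 0.00079). The YAPi groups were the highest of all 10 for IL1A and overlapped each other. STAT3i raised it less, to 20.9 and 17.7 TPM in TAM (log2 0.82 ± 0.17, adjusted p = 5e-05). The YAPi call was lost without TAM Ctrli replicate 1 (log2 1.72, adjusted p = 0.16) or replicate 2 (1.74, 0.16), and in ETH without ETH YAPi replicate 2 (1.31, 0.12). The STAT3i call was lost without TAM Ctrli replicate 1 (0.83, 0.031), TAM Ctrli replicate 2 (0.85, 0.015) or TAM STAT3i replicate 1 (0.70, 0.12), and in 1 fit over all groups (0.80, 0.049).

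In ETH, YAPi also raised IL1B (22.2 and 27.1 TPM against 19.1 and 10.2 TPM; log2 1.00 ± 0.21, adjusted p = 6.7e-05) and CLCF1, a gp130 cytokine that acts through CNTFR (2.05 and 1.88 TPM against 0.90 and 0.60 TPM; log2 1.73 ± 0.46, adjusted p = 0.0019). CNTFR had 0 counts in every ER-Src library. The IL1B call was lost by edgeR (adjusted p = 0.013) and without ETH Ctrli replicate 2 (log2 0.71, adjusted p = 0.10) or ETH YAPi replicate 2 (0.78, 0.56). The CLCF1 call was lost without any 1 of the 4 libraries: ETH Ctrli replicate 1 (1.89, 0.074) or 2 (1.58, 0.14), or ETH YAPi replicate 1 (1.80, 0.12) or 2 (1.67, 0.14). It was also lost with effective length offsets (1.55, 0.011).

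IL6 and LIF rose in JUNBi in TAM. IL6 had 87 and 76 counts (3.69 and 2.86 TPM) against 2 and 1 counts in Ctrli, a ratio of 30.3 with an exact 95% counting interval of 10.2 to 149 (adjusted p = 6.4e-05). The next highest group, TAM TAZi, had 8 and 15 counts, a ratio to Ctrli of 4.57 (1.38 to 23.8) without overlap. YAPi had 7 and 5 counts and STAT3i 4 and 1, and IL6 had no adjusted p in these 3 knockdowns. LIF had 3.78 and 3.13 TPM against 1.68 and 1.35 TPM (log2 1.13 ± 0.29, adjusted p = 0.0019), and the 2 JUNBi libraries were the highest of the 20. The IL6 call was lost without TAM Ctrli replicate 1 (log2 5.12, adjusted p = 0.055) or TAM JUNBi replicate 1 (4.84, 0.038). The LIF call was lost without any 1 of the 4 libraries (TAM Ctrli replicates 1 and 2 and TAM JUNBi replicates 1 and 2, log2 1.07, 1.21, 1.16 and 1.10, adjusted p = 0.19, 0.055, 0.24 and 0.12), in 1 fit over all groups (0.025) and with effective length offsets (0.016).

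**Figure D2:**
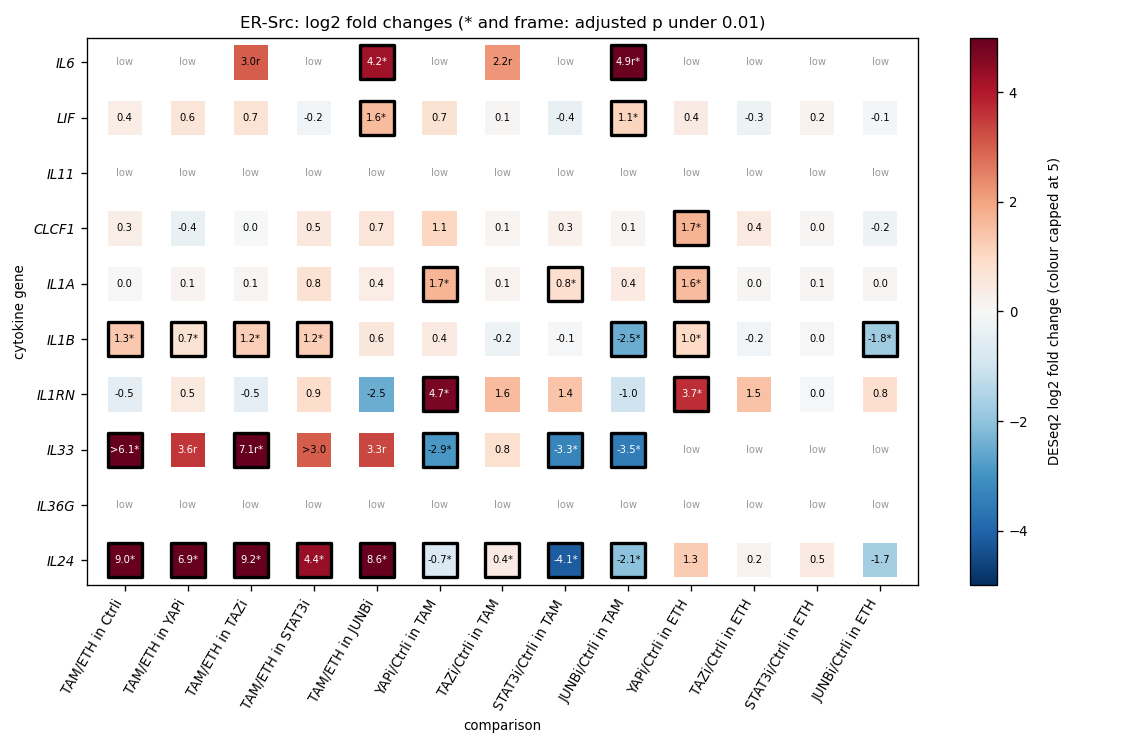
Log2 fold change of each member in the 13 pairwise ER-Src comparisons, coloured from blue (lower) to red (higher), with a frame and * where the adjusted p was under 0.01. A value with > is the bound against the floor of 3 counts, r marks a count ratio where the lower group had 1 to 3 counts, and low marks a mean count under 10 in both groups. The IL24 row is red for TAM against ETH in all 5 siRNA groups and blue for STAT3i (-4.1) and JUNBi (-2.1) in TAM.

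Differences between knockdowns were tested directly in 4 comparisons added after the values had been seen. YAPi against TAZi had 5 of 10 members called in TAM (background 6.13%) and 3 in ETH (4.25%). In TAM, IL1A (log2 1.58), IL1B (0.69) and IL1RN (3.18 ± 0.31, adjusted p = 8.8e-22) were higher in YAPi, and IL33 (-3.72 ± 0.43, adjusted p = 1e-15) and IL24 (-1.17 ± 0.14, adjusted p = 2.7e-14) were lower. In ETH, IL1A (1.53), IL1B (1.17) and IL1RN (2.23) were higher. Calls lost without 1 library were IL1A in TAM (TAM TAZi replicate 1, 1.39, or 2, 1.80), IL1B in TAM (TAM TAZi replicate 1, 0.73, or 2, 0.64, or TAM YAPi replicate 2, 0.33) and IL1B in ETH (ETH YAPi replicate 2, 0.97), and edgeR gave no call to IL1A (adjusted p = 0.016) and IL1B (0.062) in TAM. In 1 fit over all groups IL24 (-1.18, adjusted p = 0.18) and IL1B (0.67, 0.037) in TAM were lost.

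JUNBi against STAT3i had 4 of 10 members called in TAM (background 5.79%) and 1 in ETH (1.72%). In TAM, IL6 (log2 5.10 ± 0.84, adjusted p = 7.7e-08), LIF (1.48 ± 0.27, adjusted p = 1.8e-06) and IL24 (2.07 ± 0.17, adjusted p = 3.9e-30) were higher in JUNBi, and IL1B was lower (-2.45 ± 0.18, adjusted p = 4.6e-38). In ETH, IL1B was lower (-1.79 ± 0.33, adjusted p = 2.3e-05). The LIF call was lost without TAM JUNBi replicate 2 (1.44, adjusted p = 0.014) or TAM STAT3i replicate 1 (1.35, 0.011), and the ETH call of IL1B by edgeR (0.094) and without ETH STAT3i replicate 1 (-1.73, 0.15) or 2 (-1.86, 0.036). The gap between gene length and effective length was 49.0 bases in the STAT3i and JUNBi libraries and 49.5 bases in the other ER-Src libraries. It thus differs in their comparisons with Ctrli and not in this one. With effective length offsets in the fit, of all ER-Src calls only the IL1B rise in YAPi, the LIF rise in JUNBi and the CLCF1 rise in YAPi were lost. These offsets adjust for effective length alone, and any other difference between these libraries was not tested.

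The receptors of these cytokines changed with TAM as well. Of 18 receptor genes, 15 were tested in TAM against ETH in Ctrli, of which 7 rose and 1 fell beside a background of 6.21%, and the median log2 fold change of the list was 0.46 against -0.01 over all genes tested. IL1RL1, the receptor of IL33, went from 5.49 and 5.06 TPM to 71.4 and 71.1 TPM (log2 4.04 ± 0.12, adjusted p = 6.7e-229). IL1RAP, the shared partner of the IL-1 and IL-33 receptors, rose by a log2 fold change of 2.38 ± 0.17 and the decoy receptor IL1R2 by 2.02 ± 0.25. IL20RB, a chain of the IL-24 receptors, had a mean of 33.1 TPM in ETH and 14.8 TPM in TAM in Ctrli, and IL20RA and IL22RA1 had at most 1.1 and 0.51 TPM in ER-Src.

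STAT3i lowered 5 of 15 receptor genes tested in TAM and raised 1 (background 8.22%), with a list median of -0.21 against 0.03 over all genes. IL1R2 fell by 2.59 on the log2 scale, IL1RL1 by 2.42 (23.7 and 11.7 TPM against 71.4 and 71.1 TPM) and IL1RAP by 1.86. The TAM effect differed from that in Ctrli for IL1RAP (log2 difference -2.13 ± 0.27, adjusted p = 1.1e-12), IL1R2 (-1.84, adjusted p = 0.0046) and IL20RB (1.06, adjusted p = 0.0019). In JUNBi in TAM, 4 rose and 2 fell of 14 tested (background 6.90%), among them the LIF receptor LIFR (1.49 ± 0.19) and IL1R2 (0.92) upward and IL1RAP (-1.25 ± 0.16) downward, and the TAM effect on IL1RL1 was larger than in Ctrli (1.82 ± 0.26, adjusted p = 1.6e-08).

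YAPi raised 4 receptor genes of 15 in TAM and lowered 1 (background 10.7%), with IL6R (log2 1.88 ± 0.26) and IL1R1 (1.32 ± 0.16) upward and IL1RAP (-0.997 ± 0.15) downward. In ETH it raised 4 and lowered 2 (background 11.6%), again with IL6R upward (1.75 ± 0.21) and with SIGIRR (-1.25) and IL1RL1 (-1.21) downward. TAZi raised 3 of 15 in TAM and lowered 1 (background 3.42%), with IL1R2 (1.48 ± 0.14), IL1R1 (0.94 ± 0.16) and IL1RAP (-0.54 ± 0.13), and raised 2 in ETH (background 5.24%), IL1R2 (1.57) and IL1R1 (1.16).

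**Figure D3:**
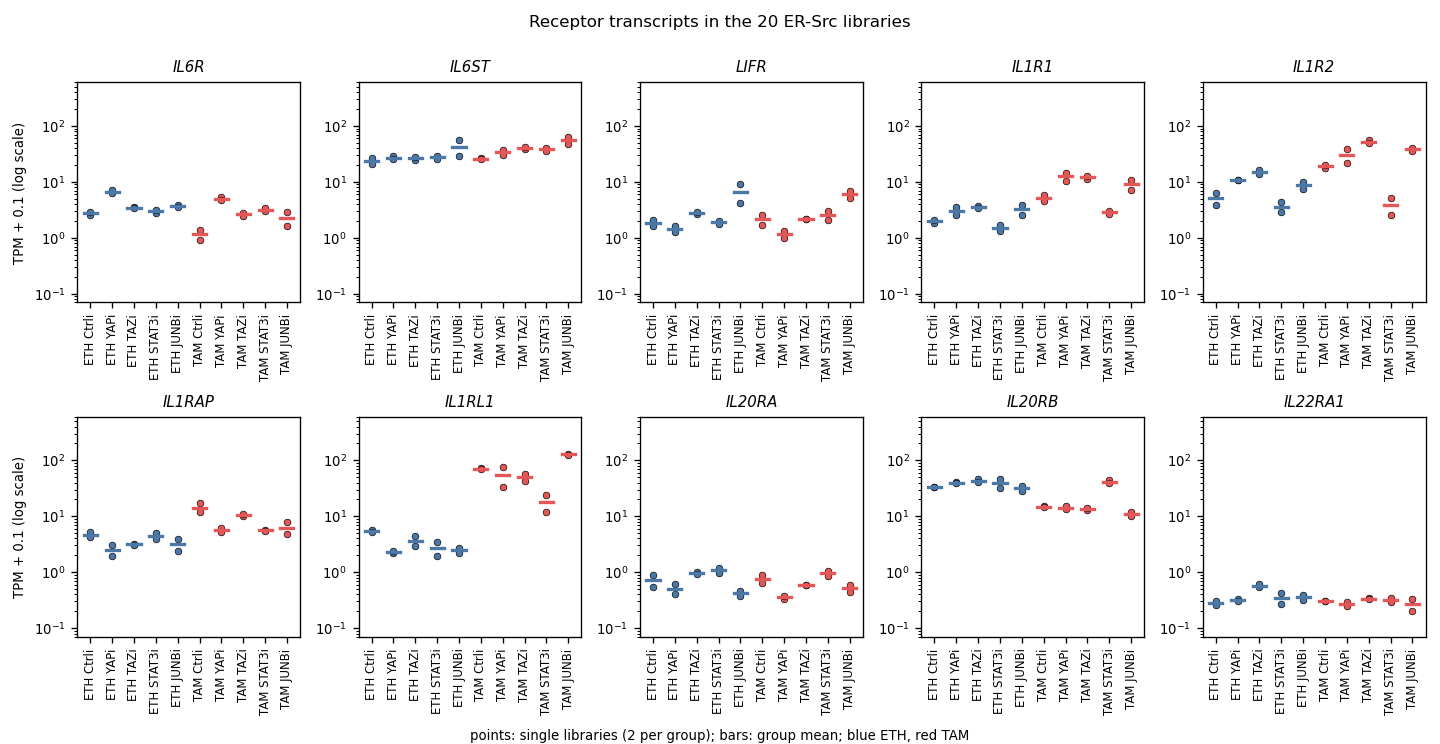
TPM of 10 receptor genes in the 20 ER-Src libraries, on a log axis after adding 0.1, with a point for each library (2 per group) and a bar for the group mean. IL1RL1 lies at 1.83 to 5.49 TPM in ETH and at 11.7 to 132 TPM in TAM, lowest in TAM STAT3i, and IL20RB is lower in TAM than in ETH in all siRNA groups but STAT3i.

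Of 17 other cytokines of the families, 4 were tested in TAM against ETH in Ctrli, and 2 were called beside the same background of 6.21%. IL20, next to IL24 on chromosome 1, went from 1 and 0 counts to 39 and 17 counts and rose (adjusted p = 0.0024), and IL18, an IL-1 family cytokine, fell from 42.5 and 34.4 TPM to 19.0 and 19.5 TPM (log2 -0.76 ± 0.15, adjusted p = 1.8e-05). In TAM, STAT3i lowered IL20 to 3 and 6 counts (log2 -3.48 ± 0.89, adjusted p = 0.0015) and raised IL18 to 68.6 and 55.9 TPM (log2 1.33 ± 0.16, adjusted p = 1.2e-15). JUNBi raised IL18 too (0.82 ± 0.17). IL36A, IL36B, IL36RN, IL37 and IL1F10, which lie among the IL-1 genes on chromosome 2, had at most 1 count in an ER-Src library.

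Of 8 genes that process or release IL-1 cytokines, 6 were tested with TAM in Ctrli, of which 3 rose beside a background of 6.21%. NLRP3, an inflammasome sensor, rose by a log2 fold change of 3.62 ± 0.57, GSDMD, which forms the membrane pores through which IL-1β leaves, by 1.27 ± 0.16, and the inflammatory caspase CASP4 by 1.22 ± 0.13. In TAM the same 3 of the 6 tested were lower in STAT3i than in Ctrli (-1.56, -1.32 and -0.60), beside a background of 8.22%. The adaptor PYCARD had at most 2 counts in an ER-Src library. Of 14 genes of IL-1 receptor signalling, 12 were tested with TAM in Ctrli, of which 0 rose and 0 fell beside the background of 6.21%. Their median log2 fold change was 0.30, against -0.01 over all genes tested. MYD88 (1.14 ± 0.23) and TNIP1 (0.55 ± 0.11) rose with TAM in YAPi, where the background was 4.50%, and in ETH YAPi raised IRAK2 (1.5 ± 0.43) and TAB3 (0.70 ± 0.21), where it was 11.6%. Between YAPi and TAZi, TNIP1 was higher in YAPi in TAM (0.40 ± 0.10) and IRAK1 was lower in YAPi in ETH (-0.57 ± 0.15).

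MDA-MB-231 had all 4 members of the IL-6 family in every library. IL6 had 15.0 to 166 TPM, IL11, which acts through IL11RA and gp130, 19.6 to 82.6 TPM, LIF 4.09 to 47.0 TPM and CLCF1 4.26 to 22.4 TPM over the 16 libraries. IL24 had 21.9 to 90.8 TPM, IL1B 2.86 to 56.9 TPM and IL1A 2.15 to 29.7 TPM. IL1RN never had more than 9 counts, IL36G never more than 1, and IL33 had 1 count in 1 library and none in the other 15. A library with 0 counts allows up to 3 counts, and such limits cover counting error only. The lines were sequenced separately, so that levels are set side by side without a test.

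**Figure D4:**
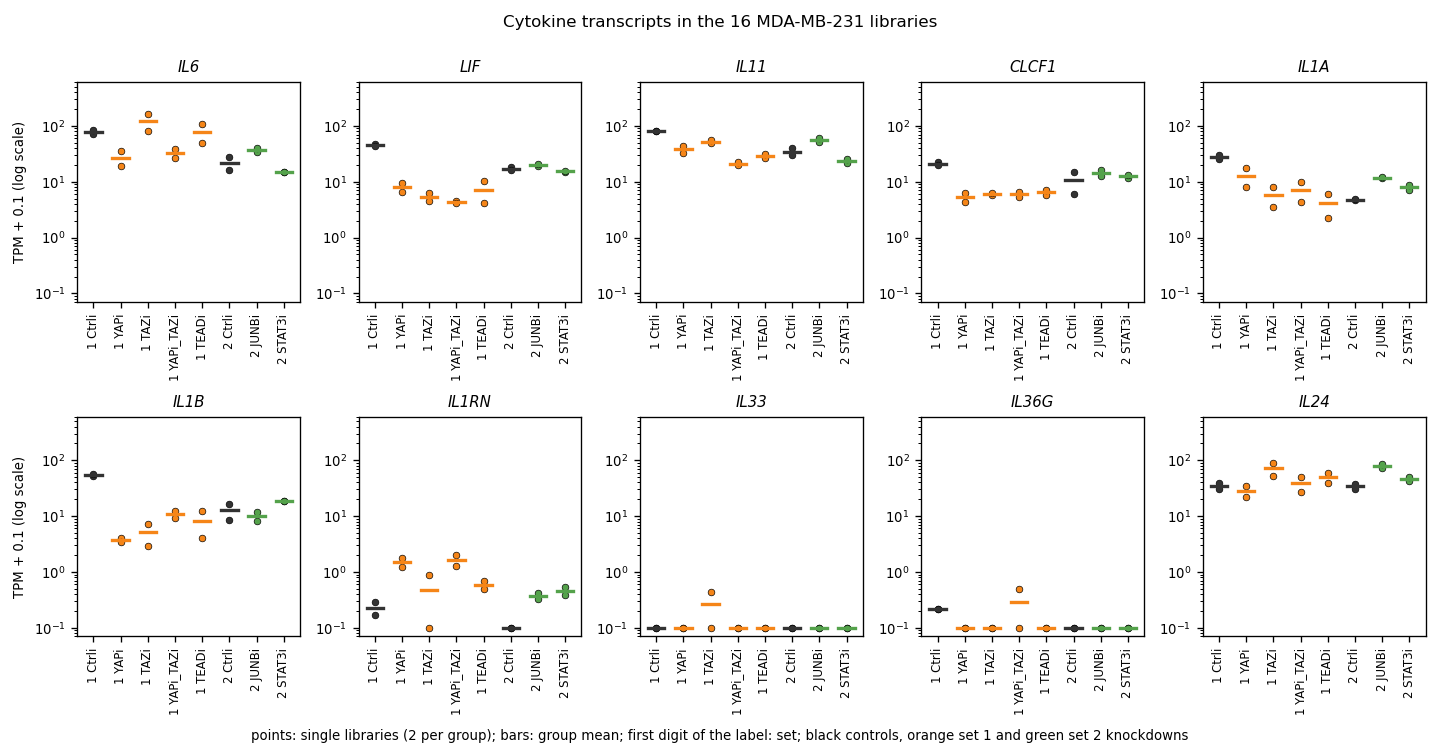
TPM of each member in the 16 MDA-MB-231 libraries, on a log axis after adding 0.1, with a point for each library (2 per group), a bar for the group mean and the set as the first digit of the label. The set 1 controls stand apart from the set 2 controls for LIF (47.0 and 43.3 against 18 and 16.2 TPM) and for IL1B (52.3 and 56.9 against 16.5 and 8.55 TPM).

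Set 1 against its controls gave 3 member calls in YAPi (background 24.4%), 6 in TAZi (32.8%), 5 in YAPi_TAZi (35.5%) and 5 in TEADi (27.5%), and siRNA and library type cannot be told apart in any of them. The 2 scales also differ there. The median gene with a mean count of at least 100 had a log2 TPM ratio of -1.43 to -1.33 in these comparisons, while the size factors of DESeq2 place it near 0, and fold changes below are relative to that median gene.

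LIF was lower in all 4: it had 47.0 and 43.3 TPM in Ctrli and 4.09 to 10.1 TPM in the 8 knockdown libraries, with log2 fold changes of -0.90 ± 0.19 in YAPi, -1.63 ± 0.16 in TAZi, -2.12 ± 0.18 in YAPi_TAZi and -1.40 ± 0.20 in TEADi. IL1B was lower in all 4 as well, with 52.3 and 56.9 TPM in Ctrli and 2.86 to 12.5 TPM in the knockdowns (-2.59 ± 0.38, -2.05 ± 0.26, -1.49 ± 0.23 and -1.81 ± 0.32 in the same order). No knockdown library reached a control library for either gene, on either scale. The call of LIF in YAPi was lost without Ctrli replicate 1 (log2 -0.91, adjusted p = 0.063) or 2 (-0.92, 0.060). The call of IL1B in YAPi_TAZi was lost without Ctrli replicate 1 (-1.60, 0.020) or 2 (-1.41, 0.058), and in TEADi without Ctrli replicate 2 (-1.74, 0.018).

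IL24 was higher in all 4 relative to the median gene, by 1.23 ± 0.25 in YAPi, 2.58 ± 0.16 in TAZi, 1.69 ± 0.17 in YAPi_TAZi and 2.10 ± 0.21 in TEADi, but in YAPi it was lower on the TPM scale (log2 ratio -0.33; 21.9 and 33.8 TPM against 30.1 and 39.7 TPM in Ctrli, overlapping). IL6 was higher in TAZi (2.31 ± 0.15; 81.2 and 166 TPM against 71.8 and 83.3 TPM) and TEADi (1.68 ± 0.20), where its TPM hardly differed (log2 ratio 0.02). IL11 was higher in TAZi (1.02 ± 0.23) and lower there on the TPM scale (log2 ratio -0.66), and lower in YAPi_TAZi (-0.42 ± 0.14, adjusted p = 0.0085). IL1A was lower in TAZi (-0.85 ± 0.26) and TEADi (-1.29 ± 0.37). IL1RN was called in YAPi_TAZi with 6 and 9 counts against 1 and 3.

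Several of these calls were lost in other fits. Without set 1 Ctrli replicate 1, IL24 in YAPi had an adjusted p of 0.050 (log2 1.08). IL1A in TAZi was lost without any 1 of its 4 libraries (Ctrli replicates 1 and 2, -1.0 and -0.76; TAZi replicates 1 and 2, -0.78 and -1.04), and IL1A in TEADi without Ctrli replicate 1 (-1.45, adjusted p = 0.098) or 2 (-1.20, 0.22). IL1A in TAZi was also lost in 1 fit over all groups (adjusted p = 0.053), with effective length offsets (0.014) and with a mean count of at least 10 (0.014). IL11 in YAPi_TAZi was lost without Ctrli replicate 1 (-0.45), Ctrli replicate 2 (-0.41) or YAPi_TAZi replicate 2 (-0.28), by edgeR (adjusted p = 0.026), in 1 fit over all groups (0.30), with effective length offsets (0.019) and with a mean count of at least 10 (0.14). IL1RN in YAPi_TAZi was lost without any 1 of its 4 libraries (adjusted p = 0.070, 0.034, 0.011 and 0.026 without Ctrli replicates 1 and 2 and YAPi_TAZi replicates 1 and 2). With the controls of both sets in the fit, 7 of the 19 calls were made, and IL24 was called in none of the 4 (log2 0.31 in YAPi, 1.65 in TAZi, 0.76 in YAPi_TAZi and 1.16 in TEADi, adjusted p = 0.77, 0.067, 0.44 and 0.20). IL1B kept its call there in YAPi alone, and LIF lost it in YAPi (-0.76, 0.14).

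The set 1 knockdowns were also compared with each other, each siRNA against the mean of the other 3. All 8 of these libraries hold RNAs without a poly(A) tail, but the replicates of each siRNA differ: the gap between length and effective length was 48.0 bases and these RNAs took 8.71 to 9.77% of counts in replicate 1, against 74.6 bases and 11.0 to 11.8% in replicate 2. Replicate number was a block in this fit. The members called were 4 in YAPi (background 11.2%), 3 in TAZi (9.70%), 3 in YAPi_TAZi (10.0%) and 1 in TEADi (11.7%). IL6 was called in all 4: it was lower in YAPi (19.3 and 34.8 TPM; log2 -1.51 ± 0.16, adjusted p = 6.2e-18) and YAPi_TAZi (26.7 and 38.4 TPM; -1.04 ± 0.16, adjusted p = 9.8e-09), and higher in TAZi (81.2 and 166 TPM; 1.70 ± 0.13, adjusted p = 9.6e-36) and TEADi (49.3 and 107 TPM; 0.85 ± 0.14, adjusted p = 2.8e-08). By fold change it ranked 5 among 306 called genes that were lower in YAPi and 4 among 399 that were higher in TAZi. These 4 contrasts share libraries and are not independent of each other. IL6 lost its call in YAPi_TAZi without YAPi_TAZi replicate 2 (-0.90, adjusted p = 0.011) and in TEADi without TEADi replicate 2 (0.71, 0.043).

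IL24 was lower in YAPi (-0.91 ± 0.14, adjusted p = 1.6e-09) and higher in TAZi (0.91 ± 0.12, adjusted p = 1.6e-12) than in the other knockdowns. IL11 was higher in TAZi (0.98 ± 0.12; 48.5 and 56.1 TPM) and lower in YAPi_TAZi (-0.90 ± 0.14; 19.6 and 22.1 TPM). IL1A was higher in YAPi (1.29 ± 0.25, adjusted p = 4.7e-06), a call lost without YAPi replicate 1 (1.26, adjusted p = 0.051) or 2 (1.34, 0.067) and with effective length offsets (1.30, 0.011). LIF was higher in YAPi (0.79 ± 0.20) and lower in YAPi_TAZi (-0.80 ± 0.23), and both calls were lost without any 1 of the 8 knockdown libraries (log2 0.76 to 0.82 and -0.84 to -0.75) and with effective length offsets (0.59 and -0.71). IL1A was lower in TEADi (-0.94) short of the threshold by DESeq2 (adjusted p = 0.012) and past it by edgeR (0.0012).

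In set 2, JUNBi raised IL24 from 37.8 and 30 TPM to 74.1 and 86.8 TPM (log2 0.84 ± 0.21, adjusted p = 0.0028), the only one of 10 members called against a background of 3.41%. edgeR called 0 members there (IL24 adjusted p = 0.11), and without Ctrli replicate 4 the DESeq2 call was lost (0.80, adjusted p = 0.068). IL1A had 4.67 and 4.76 TPM in Ctrli and 11.5 and 12.2 TPM in JUNBi, without overlap, and did not pass (1.03 ± 0.37, adjusted p = 0.056). IL6 had 27.6 and 16 TPM in Ctrli, 33.7 and 39.4 TPM in JUNBi (0.63 ± 0.32, adjusted p = 0.22) and 15.0 and 15.1 TPM in STAT3i. In STAT3i only 2013 genes had an adjusted p, of which 0.497% were called, and no member was among those 2013. There 0 members passed by edgeR, and 1 (IL11, log2 -0.67 ± 0.25) had an unadjusted p under 0.05 by DESeq2.

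**Figure D5:**
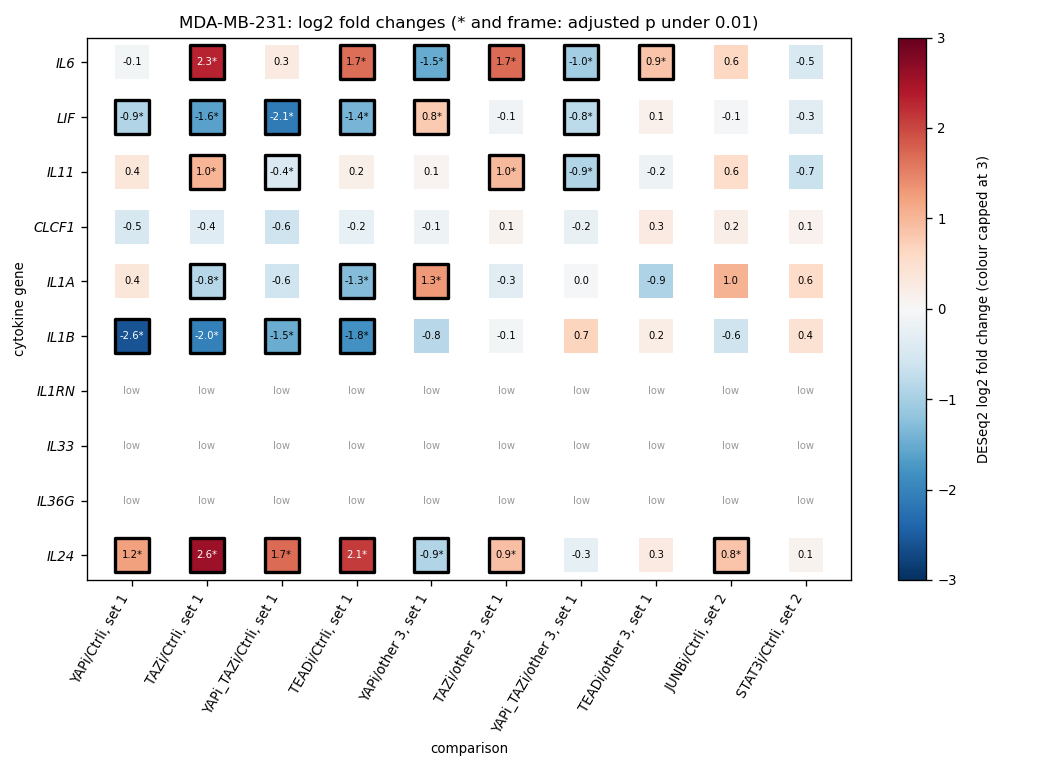
Log2 fold change of each member in the 10 MDA-MB-231 comparisons (4 set 1 siRNAs against Ctrli, the same 4 against the mean of the other 3, and 2 in set 2), coloured from blue (lower) to red (higher), with a frame and * where the adjusted p was under 0.01 and low where counts were too few. LIF and IL1B are blue against the set 1 Ctrli in all 4 knockdowns, and against the other knockdowns IL6 runs from -1.5 in YAPi to 1.7 in TAZi.

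Of the MDA-MB-231 receptor genes, IL6ST had 2.85 to 147 TPM and OSMR 5.02 to 46.1 TPM, while IL1R2 and IL1RL1 never had more than 6 and 4 counts. Against the set 1 Ctrli, where siRNA and library type cannot be told apart, the receptor genes called were 4 of 13 in YAPi, 4 of 14 in TAZi, 6 of 15 in YAPi_TAZi and 6 of 14 in TEADi, beside backgrounds of 24.4%, 32.8%, 35.5% and 27.5%. In YAPi 3 rose and 1 fell, with IL6ST (log2 1.46 ± 0.11) and LIFR (1.36 ± 0.21) upward relative to the median gene. On the TPM scale both overlapped Ctrli. IL6ST had 56.6 and 146.7 TPM against 57.1 and 52.8 TPM, and LIFR 5.13 and 15.0 TPM against 6.75 and 6.66 TPM. In TAZi 3 rose and 1 fell, with OSMR downward (-1.48 ± 0.14; 5.35 and 8.26 TPM against 43.9 and 46.1 TPM). In YAPi_TAZi and TEADi 5 rose and 1 fell, with IL6R upward in TEADi (2.54 ± 0.49; 4.68 and 3.69 TPM against 0.92 and 1.29 TPM). Against the other 3 knockdowns TEADi raised IL6R (1.48), IL1RAP (1.03) and IL1R1 (0.81), and YAPi lowered IL1R1 (-1.08).

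The genes whose profile over the 20 ER-Src libraries was most like that of a member were named by Pearson's r of log2 normalized counts over 10001 genes with a mean of at least 100. For IL24 they were ITGB6 (r = 0.978), TNC (0.976) and PLAUR (0.967). For IL1B they were SMIM3 (0.917), POSTN (0.916) and DNER (0.914), for IL1A DCTN5 (0.911), CYB5R1 (0.897) and MET (0.896), and for LIF ADPGK (0.797), WARS1 (0.793) and ATG13 (0.793). These are descriptions over libraries that share treatments and controls.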

How the data were processed

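MCF-10A ER-Src and MDA-MB-231 cells were treated with siRNA, and the study's methods name a TruSeq Ribo Profile kit for the RNA libraries. The 7 RNAs without a poly(A) tail took 9.435 to 11.7% of counts in ER-Src. They took 0.0028 to 0.0041% in the set 1 controls and 0.0036 to 0.0112% in set 2. Whether 1 kit served for all libraries was not tested. Per the labels and the study's methods, the authors aligned reads with STAR to GENCODE 30 transcripts (hg38, up to 20 alignments per read) and estimated gene levels with RSEM. Versions are not given in the sources used here. The deposited gene tables hold expected counts, TPM, FPKM, and length and effective length in bases. The deposited expected counts were rounded and tested. The deposited TPM values, which the authors scaled to gene length and library total, served for levels. FPKM was not used. Symbols came from GENCODE 44 (56558 of 60725 Ensembl genes matched) and 746 identifiers that name no Ensembl gene were left out.

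DESeq2 (1.42.0; R 4.3.3) was run separately for each comparison on its own libraries (all 8 knockdowns, with replicate number as a block, for set 1 knockdowns against each other; 8 libraries for interactions), with Benjamini-Hochberg adjusted p under 0.01 as the threshold. Tests were checked on simulated counts. The dispersion trend was parametric in 26 of 31 comparisons and local in 5. Members with a mean count under 10 in both groups are given as counts. Alternatives were edgeR (4.0.16), TMM size factors, a mean count of at least 10, effective length offsets, an adjusted p under 0.05, a replicate block, 1 fit over all groups, controls of both sets, and leaving out each library, with the lone library then assumed to vary like the pairs. Comparisons between knockdowns in ER-Src and the TPM scale were added after the data had been seen. The members and gene lists were chosen with earlier results of these data known. Members are named in every comparison, and of the lists at most 3 genes per comparison with the largest changes. Counting intervals are exact and cover counting error only. Of the leukocyte markers, 1 is not reported here.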

Additional observations from a re-analysis of the deposited data

Results flagged for a closer look

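The TAM effect on IL24 in ER-Src differed between STAT3i and Ctrli by -4.57 on the log2 scale in a test of the difference itself.

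For 3 pairs of comparisons, both libraries of a knockdown moved one way from Ctrli in ER-Src and the other way in MDA-MB-231, and the difference between the lines was not tested. For IL1B in YAPi the log2 fold change was 1.00 in ER-Src in ETH and -2.59 in MDA-MB-231 set 1. For IL24 in YAPi it was -0.74 in ER-Src in TAM and 1.23 in MDA-MB-231 set 1, where the log2 ratio of deposited TPM was -0.33. In set 1 the siRNA and the library type cannot be told apart. For IL24 in JUNBi it was -2.06 in ER-Src in TAM and 0.84 in MDA-MB-231 set 2. Each pair holds a call that was lost by edgeR. These were IL1B in YAPi in ETH (adjusted p = 0.013), IL24 in YAPi in TAM (0.013) and IL24 in set 2 JUNBi (0.11). With the controls of both sets in the fit, IL24 in set 1 YAPi was not called either (log2 0.31).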

How the results depend on the processing

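Of the 76 member calls, 33 were kept under every alternative that gave an adjusted p, and no tested alternative turned a direction. On the TPM scale without size factors, 2 of the 62 calls in pairwise comparisons changed sign: IL24 in set 1 YAPi (-0.33) and IL11 in set 1 TAZi (-0.66). edgeR gave 5 calls in place of 10 for TAM against ETH in the knockdowns, 3 in place of 5 for knockdowns against Ctrli in ETH, and 0 in place of 1 in set 2. The controls of both sets gave 7 in place of 19 calls for set 1 against Ctrli. Leaving out 1 library gave 3 calls in each fit for TAM against ETH in Ctrli, 8 to 10 for the same contrast in the knockdowns, 6 to 14 for knockdowns against Ctrli in TAM, 2 to 5 in ETH, 1 to 2 for interactions, 12 to 19 for set 1 against Ctrli, 8 to 9 for set 1 knockdowns against each other, 0 to 1 in set 2, and 11 to 13 between knockdowns in ER-Src. The cause of these losses was not tested, except that a fit without a library has fewer samples.

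Same-numbered libraries were only 2 pairs and the labels link them by number alone. Their deviations correlated by 0.128 to 0.59 between TAM and ETH, -0.067 to 0.091 between knockdowns and Ctrli in TAM, 0.181 to 0.438 in ETH, 0.265 to 0.685 between knockdowns in ER-Src, -0.041 to 0.006 between set 1 knockdowns and Ctrli, and 0.449 to 0.502 among the set 1 knockdowns. With a replicate block the calls were 3 for TAM against ETH in Ctrli, 11 in the knockdowns, 10 against Ctrli in TAM, 3 in place of 5 in ETH, 1 for interactions, 16 for set 1 against Ctrli and 12 between knockdowns in ER-Src. Calls lost with the block were IL24 in TAZi (adjusted p = 0.027) and LIF in JUNBi (0.026) in TAM, CLCF1 (0.038) and IL1A (0.030) in YAPi in ETH, IL1A in set 1 TAZi (0.11) and TEADi (0.022), IL11 in YAPi_TAZi (0.098), and IL1B in YAPi against TAZi in TAM (0.010). IL1A with TAM in STAT3i became a call (0.0034). Without the block the set 1 knockdowns against each other had 10 calls. In set 2 no paired analysis was possible because the controls carry the numbers 3 and 4. The set 1 knockdowns held 13 to 38 counts of IL1B a library, and IL33 had at most 2 in ETH. What these counts limit was not tested.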
